A study of Mus musculus with 2 samples.

Results

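Effector and innate-like T cells were picked out of a droplet single-cell RNA data set of the mouse retinal pigment epithelium (RPE) and choroid, the pigmented vascular layer behind the retina. The cells were chosen by their own counts of unique molecular identifiers (UMIs, 1 per captured RNA molecule). A barcode was kept with at least 1500 UMIs and 200 genes. It counted as a T cell with at least 2 UMIs over Cd3d, Cd3e and Cd3g, the invariant chains of the T cell receptor complex. It entered the gate with at least 2 UMIs over Cxcr6, Trdc, Tcrg-C1, Cxcr3 and Icos, with 0 UMIs of the B cell gene Cd79a and at most 1 of the myeloid gene Lyz2. The gate held 171 of 3377 kept barcodes and of 698 T cells, the latter called CD3 cells here. There were 94 gated cells in the Tsc1 flox library and 77 in the Tsc1 RPE KO library.

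The study compared mice with the conditional Tsc1 allele Tsc1tm1Djk/J and no Cre (Tsc1 flox) with mice that carried the same allele and the Best-Cre transgene, labelled as specific to the RPE (Tsc1 RPE KO). Tsc1 codes for one protein of a complex that keeps the growth kinase mTORC1 in check, and the series title concerns hyperactive mTORC1 in the RPE. Every mouse was 10 weeks old, and both groups carried the floxed allele. Each genotype was 1 library made from 1 male and 1 female pooled, after removal of the neural retina, enzyme digestion and a sort for live cells. Cells of 1 library share their source, so no difference between genotypes has a replicate check and no p-value is given. All intervals are 95% intervals and cover counting error only.

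Effector T cells are T cells that have met antigen, have left the recirculating naive pool and make cytokines or cytotoxic proteins on renewed contact. Innate-like T cells, among them many T cells with a gamma delta receptor, take up such a state during development and settle in barrier tissues. CXCR6 and CXCR3 are chemokine receptors that guide effector cells into tissue, ICOS is a costimulatory receptor induced by activation, and Trdc and Tcrg-C1 encode constant regions of the delta and gamma receptor chains.

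Gated cells were sequenced to a similar depth in both libraries, with a median of 5897.5 UMIs (lowest 1756, highest 27981) in Tsc1 flox and 5405 (2071 to 21413) in the Tsc1 RPE KO library. They held a median of 19 UMIs over the Cd3 genes in each library, and 613353 and 482051 UMIs in all. The libraries held 10771118 and 12574364 UMIs in all, and 0 gated barcodes occurred in both. Scrublet marked 8 of 1530 and 22 of 1847 kept barcodes as doublets, and 0 of them were gated. The labels place the deletion of Tsc1 in the RPE, so its counts in T cells check no label: Tsc1 had 7 and 9 UMIs in gated cells, 11.4 and 18.7 UMIs per 1000000 UMIs of the gate (CPM).

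Of the markers that chose the cells, Cxcr6 had a UMI in 69 of 94 Tsc1 flox cells and 48 of 77 Tsc1 RPE KO cells, Icos in 57 and 44, Cxcr3 in 37 and 38, Trdc in 17 and 10, and Tcrg-C1 in 21 and 9. In B cells, chosen by at least 2 Cd79a UMIs and no Cd3 UMI, Cxcr6 had a UMI in 1 of 403 and 0 of 319 cells, at median depths of 3904 and 3882 UMIs. At the floor of 3 counts, the 0 in the Tsc1 RPE KO B cells allows a share of cells with a UMI of up to 0.940%. Trdc marks gamma delta T cells less strictly: in NK cells, defined below, it had a UMI in 28 of 159 cells (17.6%) and 28 of 113 (24.8%). Tcrg-C1 shares most of its sequence with Tcrg-C2, so its counts are uncertain between copies. Trdc overlaps Trdv5 and Gm43434, and Cxcr6 overlaps Fyco1, on the other strand in each case. Icos overlaps Gm37039 on the same strand.

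The RefSeq promoter window of Cxcr6, the marker seen in the most gated cells, is shown here and those of 4 further genes are shown beside their values below. All windows are from the GRCm38.p6 assembly and run from 250 bases before the annotated start to 50 bases after it; capitals mark matches to AGGTCA (a nuclear receptor half-site), GGTGTGA (a T-box core) or TGTGGT (a RUNX core). Both strands were searched, and no match overlapped another. Of 32544 windows of this length, 16.2% held AGGTCA, 3.95% held GGTGTGA and 16.7% held TGTGGT, so a match is a description and not a binding site. Cxcr6 lies at chr9:123806475-123811760 on the + strand, and its window at chr9:123806227-123806526 holds TGTGGT on the opposite strand, 10 bases before the start.
Cxcr6: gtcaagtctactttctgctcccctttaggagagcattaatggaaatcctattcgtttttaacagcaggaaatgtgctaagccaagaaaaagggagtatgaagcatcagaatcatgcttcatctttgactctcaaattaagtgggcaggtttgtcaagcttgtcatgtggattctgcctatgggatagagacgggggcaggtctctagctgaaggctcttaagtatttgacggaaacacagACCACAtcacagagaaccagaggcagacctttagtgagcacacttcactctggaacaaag

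The gated cells were a smaller share of T cells in Tsc1 RPE KO, with overlapping intervals. They were 27.9% of CD3 cells (23.2 to 33.0%) in Tsc1 flox and 21.3% (17.2 to 25.9%) in the Tsc1 RPE KO library, and 6.14% (4.99 to 7.47%) and 4.17% (3.30 to 5.18%) of kept barcodes. The gate depends on depth: with each cell thinned to 1500 UMIs the shares of CD3 cells were 12.4% and 9.76%, and with a minimum of 3 marker UMIs they were 20.8% and 16.1%. Without the gated cells that held naive genes, described next, the shares were 22.1% and 19.3%. The remaining CD3 cells divided into 60 and 59 with 1 marker UMI and 183 and 225 with none; the latter serve as the comparison below and are called other CD3 cells.

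The name effector holds for most of the gate and, in Tsc1 flox, not for its edge. Cells at exactly 2 marker UMIs numbered 24 in Tsc1 flox and 19 in the Tsc1 RPE KO library. Those of Tsc1 flox had 58.1 CPM of S100a4, a gene of memory and effector T cells, against 129 CPM in the 60 cells just outside the gate and 1659 CPM in the 70 cells with 3 or more. Their Lef1, a transcription factor of naive T cells, stood at 668 CPM, against 503 just outside and 92.9 further inside. In Tsc1 RPE KO the cells at exactly 2 lay between the others in S100a4, with 869.7 CPM against 224 just outside and 1565 further inside. Their Lef1, at 316 CPM, was nearer to the 384 CPM just outside than to the 91.9 CPM further inside. Their Ccl5, a chemokine gene of cytotoxic lymphocytes, was highest, at 13687 CPM against 6880 just outside and 5498 further inside. In Tsc1 flox Ccl5 was lowest in the cells at exactly 2, at 668 CPM against 2472 just outside and 8265 further inside. In all, 25 of 94 gated cells (26.6%, 18.0 to 36.7%) in Tsc1 flox and 9 of 77 (11.7%, 5.49 to 21%) in the Tsc1 RPE KO library had at least 5 UMIs over Ccr7, Lef1 and Dapl1, genes of naive and recirculating T cells, and 22 and 5 of these stood at exactly 2 marker UMIs. S100a4 stood at 27.6 CPM in those 25 cells and at 0 CPM in those 9, with an upper bound of 60.6 CPM, while Icos had a UMI in 17 and 5. Icos was the only marker with a UMI in 15 and 13 gated cells, more than any other single marker. Cxcr6 followed, as the only marker in 11 and 8.

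The gated cells were grouped by their receptor and coreceptor genes. Groups were formed in the order Trdc (at least 2 UMIs), Foxp3 (at least 1), then Cd8a or Cd8b1 without Cd4, Cd4 without Cd8, and no coreceptor UMI. They were defined after the values had been seen and are a description. Cells with CD8 genes, the coreceptor of cytotoxic T cells, were the largest group in both libraries, with 42 of 94 (44.7%, 34.4 to 55.3%) in Tsc1 flox and 26 of 77 (33.8%, 23.4 to 45.4%) in the Tsc1 RPE KO library. Cells with Cd4, the coreceptor of helper T cells, were 14 (14.9%, 8.39 to 23.7%) and 22 (28.6%, 18.8 to 40.0%). Trdc cells were 15 (16%, 9.22 to 25%) and 8 (10.4%, 4.59 to 19.4%). Of these Trdc cells, 13 and 2 held no UMI of Trac, the alpha chain gene. The group is therefore no count of gamma delta T cells. Foxp3, the transcription factor of regulatory T cells, put 3 and 5 cells in a group of their own. Cells with no coreceptor UMI were 19 and 16, and 1 Tsc1 flox cell had UMIs of both coreceptors. A missing coreceptor UMI does not show that the gene was off, since Cd4 gave only 25 and 48 UMIs over all gated cells. Over the whole gate Cd4 stood at 40.8 CPM in Tsc1 flox and 99.6 CPM in the Tsc1 RPE KO library, 2.44-fold higher (1.48 to 4.13).

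**Figure D1:**
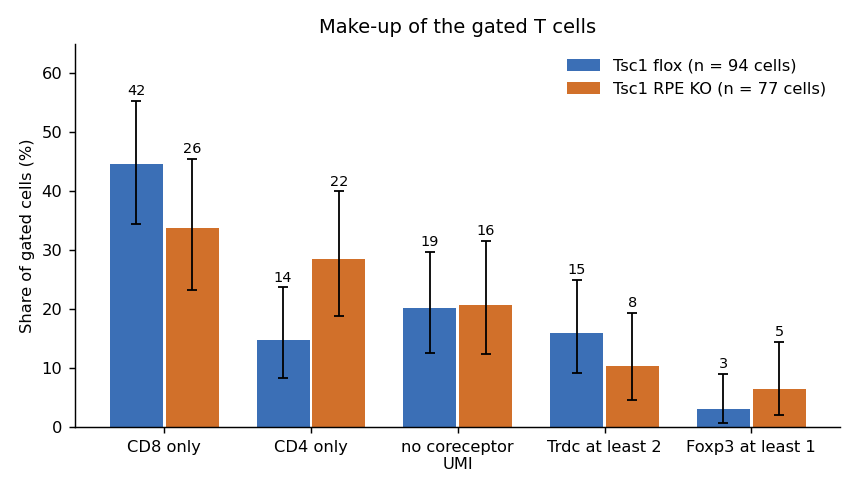
Share of gated cells (%) in each group by receptor and coreceptor UMIs, with Tsc1 flox (94 cells) and Tsc1 RPE KO (77 cells) side by side and exact 95% binomial intervals. CD8 cells were the largest group in both libraries, at 44.7% and 33.8%, and the intervals of each group overlap between libraries.

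Trdc cells with genes of the type 17 programme, through which T cells make interleukin 17, held little alpha chain RNA in Tsc1 flox. They were the cells with at least 2 UMIs over 10 type 17 genes (Il23r, Blk, Il17a, Il17f, Il1r1, Il17re, Cd163l1, Sox13, Ccr6 and Ltb4r1), a cut set after the values had been seen. There were 11 in Tsc1 flox (11.7% of the gate, 5.99 to 20%) and 3 in Tsc1 RPE KO (3.90%, 0.811 to 11%). The 11 Tsc1 flox cells held 2 to 24 Trdc UMIs each (median 7), Tcrg-C1 in all 11 (90 UMIs) and Cxcr6 in all 11 (70 UMIs), all of them genes of the gate. Trac, the constant gene of the alpha chain, gave 1 UMI over the 11 cells. With the beta chain genes Trbc1 and Trbc2 added, each cell held 1 to 22 UMIs (median 6). The medians were 17 in CD8 cells and 17.5 in Cd4 cells of the same library. The delta variable gene Trdv4 gave 39 UMIs in 8 of the 11, and the gamma variable gene Tcrg-V6 gave 15 in 7; Trdv4 and Tcrg-V6 were named after their values had been seen. S100a4 was found in all 11, at 5 to 46 UMIs a cell (median 18).

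The 3 type 17 Trdc cells of Tsc1 RPE KO had 17, 9 and 4 Trdc UMIs, 12, 6 and 0 Trac UMIs and 32, 6 and 4 Trdv4 UMIs. The deepest of them, with 21413 UMIs, also held 180 UMIs of Gzma and 249 of Ccl5, genes of cytotoxic lymphocytes, and 19 UMIs over 5 NK cell genes. Whether this barcode holds more than 1 cell was not tested beyond Scrublet, which did not mark it.

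Il17a, the interleukin 17A gene, was found in 5 gated Tsc1 flox cells, with 34, 13, 11, 2 and 2 UMIs, and in 2 gated Tsc1 RPE KO cells, with 76 and 14 UMIs. All 7 cells were type 17 Trdc cells, a group that counts Il17a among its genes. The Tsc1 flox cell with 34 Il17a UMIs, at 18146 UMIs in all, also held 48 UMIs of Cd74, a listed B cell gene. It held 22 UMIs over Trac, Trbc1 and Trbc2. Whether that barcode holds more than 1 cell was not tested beyond Scrublet, which did not mark it. Other CD3 cells, NK cells and B cells held 0 Il17a UMIs in both libraries. Against a floor of 3 counts over the other CD3 cells of each library, Il17a was at least 35.4-fold higher in gated cells of Tsc1 flox and at least 71.9-fold higher in those of Tsc1 RPE KO. Its level over the gate was 101 CPM in Tsc1 flox and 187 CPM in the Tsc1 RPE KO library, and 1 cell gave 54.8% and 84.4% of these UMIs, so the genotype ratio of 1.85 (1.32 to 2.60) rests on 1 cell in each library. Cd163l1, a scavenger receptor gene that marks a group of mouse gamma delta T cells, gave 43 UMIs in 10 Tsc1 flox cells and 4 in 2 Tsc1 RPE KO cells, 70.1 and 8.30 CPM, 8.45-fold lower in Tsc1 RPE KO (3.07 to 32.4).

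Promoter windows of Il17a and Cd163l1 are given because both genes were seen mainly in the type 17 Trdc cells that they help to define. Il17a lies at chr1:20730905-20734496 on the + strand, and its window at chr1:20730655-20730954 holds AGGTCA on the opposite strand, 120 bases before the start, and TGTGGT on the opposite strand, 52 bases before it. Cd163l1 lies at chr7:140218267-140231145 on the + strand, and its window at chr7:140218017-140218316 holds none of these letters.
Il17a: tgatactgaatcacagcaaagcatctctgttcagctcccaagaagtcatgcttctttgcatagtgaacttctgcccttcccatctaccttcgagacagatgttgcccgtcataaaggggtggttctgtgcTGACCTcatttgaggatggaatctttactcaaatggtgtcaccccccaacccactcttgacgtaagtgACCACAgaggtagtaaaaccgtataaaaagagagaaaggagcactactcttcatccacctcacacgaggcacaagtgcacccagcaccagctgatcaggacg
Cd163l1: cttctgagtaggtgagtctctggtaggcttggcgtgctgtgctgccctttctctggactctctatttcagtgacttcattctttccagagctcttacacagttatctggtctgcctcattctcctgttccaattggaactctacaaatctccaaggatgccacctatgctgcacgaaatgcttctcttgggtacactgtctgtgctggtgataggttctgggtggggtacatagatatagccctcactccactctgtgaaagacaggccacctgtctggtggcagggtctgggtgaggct

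Further genes of the type 17 list were found in the same 11 Tsc1 flox cells. Maf, a transcription factor of interleukin 17 producing and helper T cells, gave 77 UMIs in all 11, Tmem176a gave 57 in 10, and Serpinb1a gave 39 in 10. Ccl5, Gzma and Ifng, the interferon gamma gene, were at 0 UMIs in these 11 cells. The Trdc cells without type 17 genes, 4 in Tsc1 flox and 5 in the Tsc1 RPE KO library, were unlike them: Ccl5 gave 214 UMIs in 3 of 4 and 343 in 5 of 5, Maf gave 0 and 1 UMI, and Trdv4 gave 0 in both. Ifng gave 10 UMIs in 4 of the 5 Tsc1 RPE KO cells. Tcrg-C1 gave 3 UMIs in the 4 Tsc1 flox cells and 0 in the 5 Tsc1 RPE KO cells, against 90 in the type 17 group. One of these Tsc1 flox cells, with 9650 UMIs, also held 25 UMIs over 5 NK genes.

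**Figure D2:**
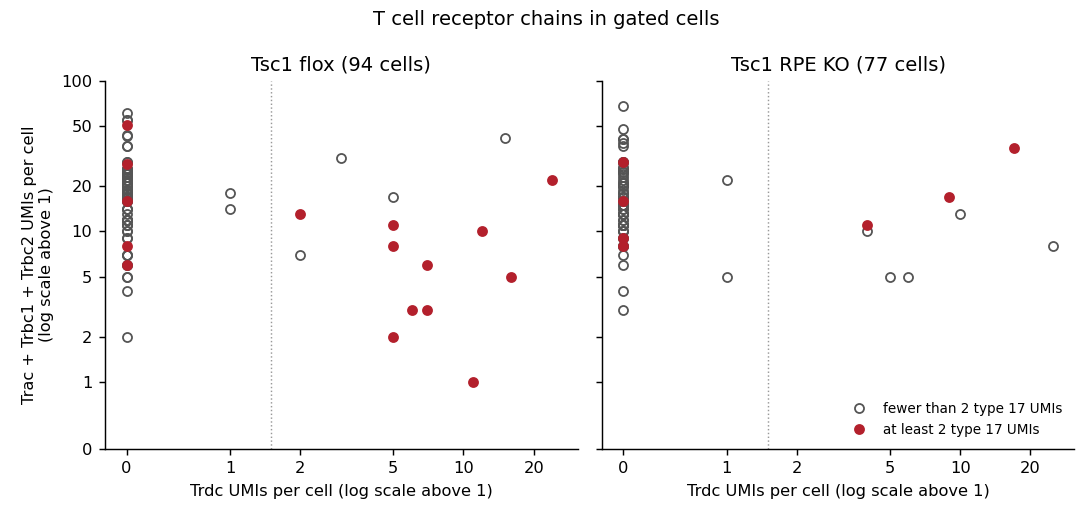
UMIs per gated cell of Trdc (horizontal axis) against the sum of Trac, Trbc1 and Trbc2 (vertical axis), 1 point per cell, both axes on a log scale above 1, with Tsc1 flox at left and Tsc1 RPE KO at right and filled points for cells with at least 2 type 17 UMIs. In Tsc1 flox the 11 filled points with 2 to 24 Trdc UMIs carry 1 to 22 alpha beta chain UMIs, median 6.

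Of the groups by receptor and coreceptor, CD8 cells had the highest CPM of Ccl5, Nkg7, Gzmk and Ly6c2 in both libraries. Ccl5, a chemokine of cytotoxic lymphocytes, was found in 31 of 42 Tsc1 flox cells and 21 of 26 Tsc1 RPE KO cells, at 11542 and 12031 CPM of the group. Nkg7, a granule protein gene, was in 39 of 42 and 26 of 26. Gzmk, a granzyme of memory CD8 cells, gave 54 UMIs in 13 cells and 29 in 13, and Gzma gave 472 in 11 and 114 in 7. Ifng gave 54 UMIs in 15 cells and 29 in 11. In Tsc1 RPE KO Ifng and Gzma were not highest in CD8 cells: Ifng stood at 173 CPM there and 256 CPM in Cd4 cells, and Gzma at 679.6 CPM there, 921 CPM in cells with no coreceptor UMI and 2856 CPM in Trdc cells, where 1 cell held 180 of 181 UMIs. Ly6c2, a surface antigen of memory CD8 cells, stood at 991 and 727 CPM of the group, and Maf at 18.8 and 0 CPM.

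Cd4 cells without Foxp3 showed another pattern. Maf gave 28 UMIs in 7 of 14 Tsc1 flox cells and 42 in 15 of 22 Tsc1 RPE KO cells, and Icos 28 in 11 and 38 in 18. Ccl5 gave 86 UMIs in 4 cells and 402 in 7, and Ifng 11 in 3 and 29 in 7. S100a4 was found in 6 of 14 and 14 of 22. All 8 Foxp3 cells held Ctla4, an inhibitory receptor of regulatory T cells, with 2, 7 and 9 UMIs in Tsc1 flox and 4, 6, 7, 10 and 12 in the Tsc1 RPE KO library. They also held Icos in every cell, S100a4 at 4 to 40 UMIs in Tsc1 flox and 7 to 97 in the Tsc1 RPE KO library, and 0 UMIs of Ccl5, Gzma, Gzmk and Ifng. Cells with no coreceptor UMI resembled neither group fully, with 386 and 467 Ccl5 UMIs in 9 of 19 and 11 of 16 cells and Maf at 287 and 233 CPM of the group.

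Compared with other CD3 cells of their own library, gated cells were highest above them in genes of memory and migration. The comparison takes genes with at least 30 UMIs over both cell classes, and is a description, since the cells were sorted by their own RNA. Of 5177 genes measured, 197 (3.81%) were at least 2-fold higher in gated cells in both libraries and 41 (0.792%) at least 2-fold lower in both. S100a4 stood at 1209.7 CPM in gated cells against 20 CPM in other CD3 cells of Tsc1 flox, 60.5-fold higher (39.3 to 98.4). In Tsc1 RPE KO it stood at 1419 against 42.4 CPM, 33.5-fold higher (25 to 45.7). S100a6, a calcium-binding protein gene of the same cluster, stood at 1912 against 110.4 CPM (17.3-fold, 14.3 to 21.1) and at 2247 against 90.9 CPM (24.7-fold, 20.2 to 30.5). S100a4 had a UMI in 58 of 94 (61.7%) and 56 of 77 (72.7%) gated cells, in 10 of 183 (5.46%) and 18 of 225 (8.0%) other CD3 cells at median depths of 5330 and 4972 UMIs, and in 7 of 403 (1.74%) and 4 of 319 (1.25%) B cells. After thinning to 1500 UMIs the gated shares were 55.3% and 59.7%. S100a4 overlaps Gm42674 on the same strand, so its counts are uncertain between them.

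Windows of S100a4 and S100a6 are given because these neighbouring genes were together far above other CD3 cells in both libraries. S100a4 lies at chr3:90603771-90606045 on the + strand, and its window at chr3:90603520-90603819 holds AGGTCA on the + strand, 24 bases before the start. S100a6 lies at chr3:90612882-90624181 on the + strand, and its window at chr3:90612644-90612943 holds TGTGGT 3 times, 217 bases before the start on the opposite strand and 145 and 79 bases before it on the + strand.
S100a4: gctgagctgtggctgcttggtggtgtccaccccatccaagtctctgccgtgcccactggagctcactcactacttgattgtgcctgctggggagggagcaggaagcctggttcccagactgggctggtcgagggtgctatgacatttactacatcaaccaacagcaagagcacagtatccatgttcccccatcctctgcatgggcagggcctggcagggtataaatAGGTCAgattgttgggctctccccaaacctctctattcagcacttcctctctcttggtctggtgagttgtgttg
S100a6: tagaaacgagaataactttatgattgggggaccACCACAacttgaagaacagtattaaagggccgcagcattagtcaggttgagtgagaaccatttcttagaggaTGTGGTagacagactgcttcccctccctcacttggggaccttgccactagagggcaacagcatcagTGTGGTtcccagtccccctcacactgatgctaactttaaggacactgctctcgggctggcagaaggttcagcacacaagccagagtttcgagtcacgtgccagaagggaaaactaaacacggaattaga

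Of the 14 genes listed for effector memory and migration, 13 were at least 2-fold higher in both libraries, beside 3.81% of all genes measured. Their median log2 ratio was 2.57 in Tsc1 flox and 2.36 in the Tsc1 RPE KO library, beside 0.19 and 0.26 over all genes measured. Cd44, the hyaluronan receptor of memory T cells, was 7.17-fold higher (4.11 to 13.3) in Tsc1 flox and 5.62-fold (3.50 to 9.27) in the Tsc1 RPE KO library. Itgb1, the beta 1 integrin, was 5.58-fold (4.31 to 7.31) and 5.25-fold higher (4.39 to 6.31). Ccr2, a chemokine receptor for entry into inflamed tissue, stood at 129 against 14.3 CPM in Tsc1 flox and 154 against 9.52 CPM in the Tsc1 RPE KO library. Maf was 12.1-fold (7.82 to 19.7) and 14.7-fold higher (9.24 to 24.6), with 77 of its 163 Tsc1 flox UMIs in the 11 type 17 Trdc cells. Ikzf2, which encodes Helios, stood at 201 against 8.57 CPM in Tsc1 flox and 292 against 36.4 CPM in the Tsc1 RPE KO library.

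Lists of cytokine, cytotoxic and residency genes had lower medians against other CD3 cells than the memory and migration list. Of 6 chemokine and cytokine genes measured, 4 were at least 2-fold higher in both libraries, with a median of 1.99 in Tsc1 flox and 2.0 in the Tsc1 RPE KO library; Il17a, given above, is one of the list. Ifng was 3.97-fold higher in gated cells (2.68 to 5.97) in Tsc1 flox and 4.47-fold (3.06 to 6.6) in the Tsc1 RPE KO library. Ccl5 was 2.67-fold higher (2.54 to 2.82) and 1.49-fold higher (1.43 to 1.56); other CD3 cells held it at 2293 and 4841 CPM. Of 8 cytotoxic genes measured, 4 were at least 2-fold higher in both libraries, with a median of 1.24 and 0.99. Of 12 tissue residency genes, 5 were, with a median of 0.80 and 1.32. Itga1, an integrin chain of resident T cells that overlaps Pelo on the same strand, stood at 60.3 against 1.90 CPM in Tsc1 flox and at 120.3 against 16.4 CPM in the Tsc1 RPE KO library. Receptor genes for cytokines were higher as well: Il2rb, shared by the interleukin 2 and 15 receptors, was 5.18-fold (3.67 to 7.42) and 4.29-fold higher (3.12 to 5.95), and Il18r1 6.34-fold (4.38 to 9.38) and 4.85-fold (3.31 to 7.20). None of the 11 genes of T cell receptor signalling passed 2-fold in both libraries in either direction, with a median of 0.02 and 0.35. Trac stood at 549 against 545 CPM in Tsc1 flox and 678 against 570.4 CPM in the Tsc1 RPE KO library.

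Naive and recirculation genes were lower. Of 8 genes measured, 5 were at least 2-fold lower in both libraries, beside 0.792% of all genes measured. Their median log2 ratio was -1.29 in Tsc1 flox and -2.12 in the Tsc1 RPE KO library. Ccr7, the receptor that takes naive T cells into lymph nodes, stood at 111 against 373 CPM (3.37-fold lower, 2.60 to 4.42) and at 85.1 against 369 CPM (4.34-fold, 3.14 to 6.13). Lef1 stood at 254 against 542 CPM (2.13-fold lower, 1.78 to 2.56) and at 139 against 605 CPM (4.35-fold, 3.38 to 5.68). Dapl1 was 3.32-fold lower (2.53 to 4.41) and 8.28-fold lower (5.16 to 14.1). Igfbp4 was 5.75-fold (3.67 to 9.49) and 9.30-fold lower (4.97 to 19.7). Tcf7, a partner of Lef1 in naive and memory T cells, was 1.81-fold (1.51 to 2.17) and 2.22-fold lower (1.79 to 2.78). Ribosomal protein genes made up 27.8% and 23.0% of gated UMIs against 35.7% and 34.9% in other CD3 cells; their part in the ratios was not tested.

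**Figure D3:**
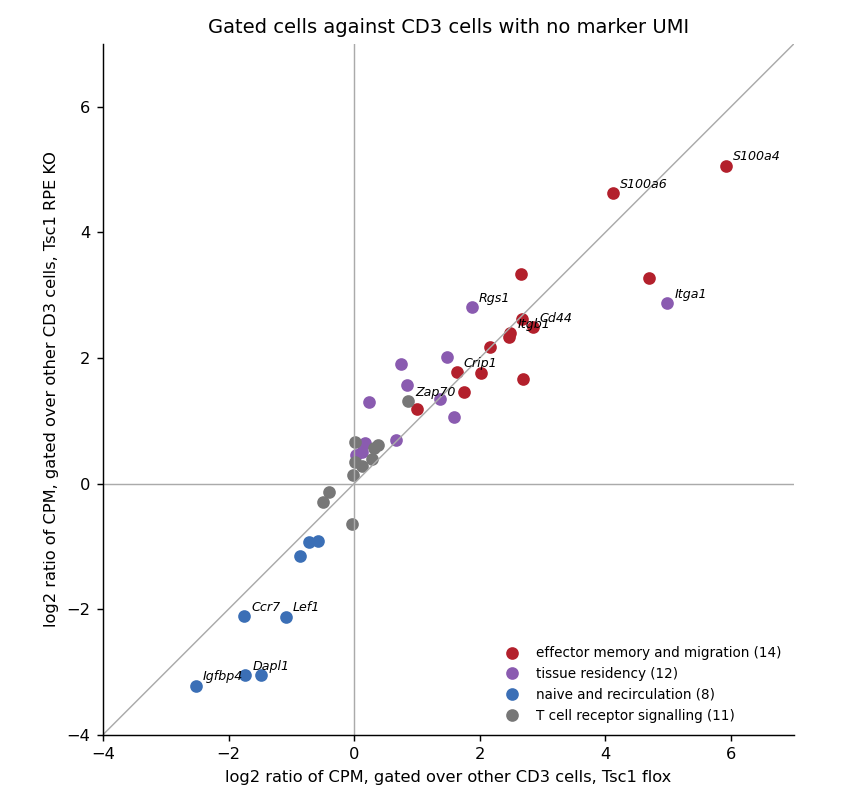
Log2 ratio of CPM of gated over other CD3 cells in Tsc1 flox (horizontal axis) and Tsc1 RPE KO (vertical axis), 1 point per gene of 4 lists; genes with 0 UMIs in either class of a library are left out. S100a4 and S100a6 lie at the upper right, and Ccr7, Lef1, Dapl1 and Igfbp4 at the lower left in both libraries.

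Natural killer (NK) cells are the lymphocytes closest to cytotoxic T cells in their transcripts. They were taken as kept barcodes with no Cd3 UMI and at least 2 UMIs over Ncr1, Klra4 and Klra8, which gave 159 and 113 cells with median depths of 4242 and 4464 UMIs. Of 4522 genes measured, 169 (3.74%) were at least 2-fold higher and 229 (5.06%) at least 2-fold lower in gated cells in both libraries. All 11 listed NK genes were at least 2-fold lower in gated cells of both libraries, beside 5.06% of all genes measured. For Ncr1, Klra4 and Klra8, which are on the list, the direction was fixed by the choice of NK cells. Tyrobp, a signalling adaptor of NK receptors, stood at 22.8 against 1985 CPM in Tsc1 flox and 41.5 against 2079 CPM in the Tsc1 RPE KO library. Gzma was 15.4-fold lower (14.2 to 16.8) and 20.3-fold lower (18.4 to 22.4), Prf1, the perforin gene, 15.3-fold (11.6 to 20.5) and 17.8-fold (12.8 to 25.7), and Ccl5 3.70-fold (3.57 to 3.84) and 3.57-fold (3.44 to 3.70).

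Above NK cells stood genes of T cell identity and some of the effector genes. Cd5, a T cell coreceptor molecule, had 96 and 107 UMIs in gated cells and 0 in NK cells, at least 38.3-fold and at least 40.8-fold higher against the floor of 3 counts. Il7r, the interleukin 7 receptor, was 19.8-fold (14.4 to 27.8) and 41.6-fold higher (22.3 to 87.4). S100a4 was 6.84-fold (5.67 to 8.31) and 8.33-fold higher (6.71 to 10.4). Trdc was 3.8-fold (2.65 to 5.57) and 2.54-fold higher (1.70 to 3.85), although Trdc helped to choose the gate. At least 5 UMIs over 5 NK genes (Ncr1, Klrb1c, Klra4, Klra8 and Klre1) were found in 7 and 3 gated cells.

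**Figure D4:**
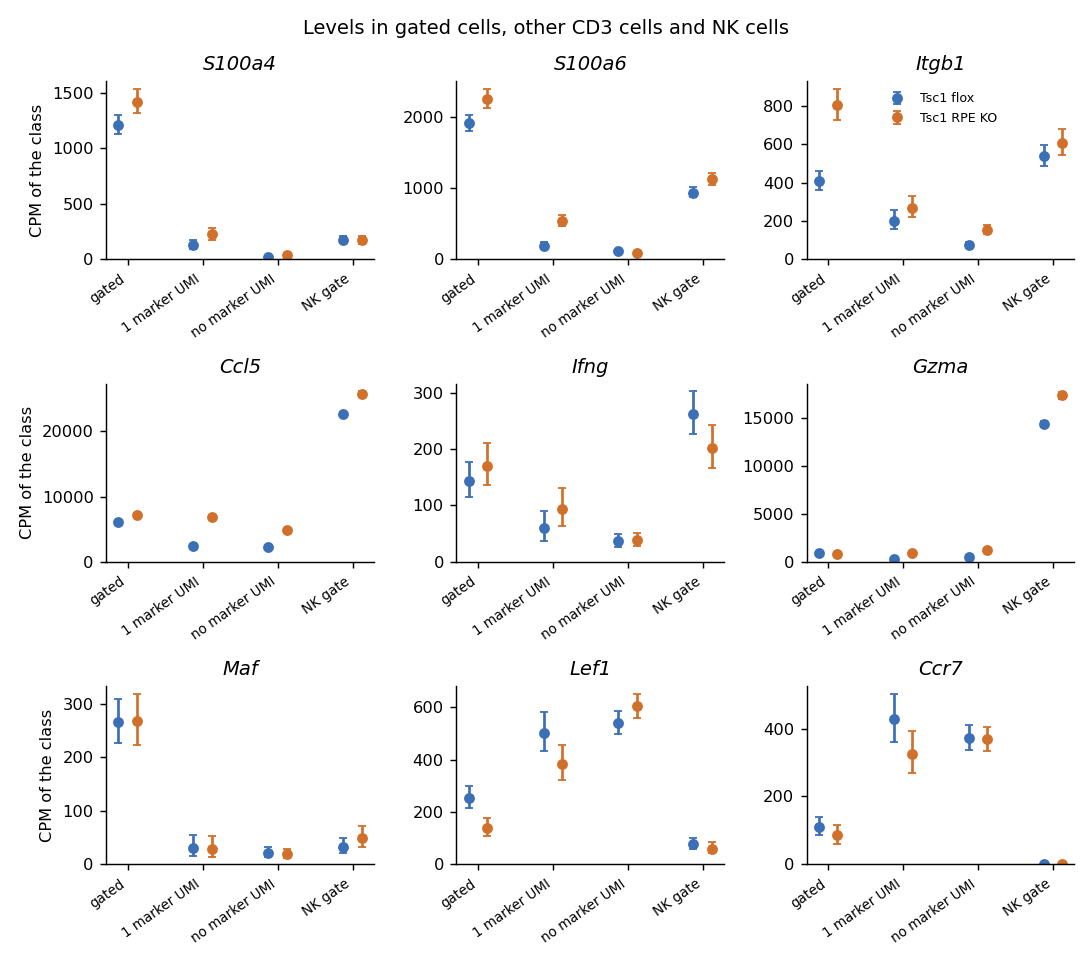
CPM of 9 genes in gated cells, CD3 cells with 1 marker UMI, CD3 cells with none and NK cells, with Tsc1 flox and Tsc1 RPE KO as separate points and exact 95% Poisson intervals; each axis starts at 0. S100a4, S100a6 and Maf are highest in gated cells, Ccl5 and Gzma in NK cells, and Lef1 and Ccr7 in CD3 cells outside the gate.

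Markers of other cell types gave few UMIs per gated cell, with a median of 0 or 1 over each of 9 lists. Of 6 mast cell genes 5 were at 0 in both libraries, Rpe65, Rlbp1 and Lrat of the RPE were at 0 in both, and C1qa, C1qb, C1qc, Fcgr4, Ms4a7 and Ace of macrophages were at 0 in both. The summed macrophage list gave 186 and 189 UMIs, with 18 and 25 in the highest cell. Cst3 of that list had a UMI in 56 of 94 and 56 of 77 gated cells, at 168 and 193 CPM, beside 2071 and 3377 CPM in free RNA. The summed B cell list gave 204 and 85 UMIs, and 1 Tsc1 flox cell held 74 of the 204. The summed RPE list gave 7 and 10 UMIs, and the erythroid list 132 and 39, with at most 6 and 3 in a cell. Other CD3 cells held more unequal amounts. The mast cell list gave 1519 UMIs there in Tsc1 flox, 1136 of them in 1 cell, and 1 UMI in Tsc1 RPE KO. The fibroblast list gave 475 UMIs, 359 of them in 1 cell, and 3. The rod list gave 20 UMIs and 428, with 281 of the latter in 1 cell. The part of these cells in the ratios of gated over other CD3 cells was not tested over all genes.

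Between genotypes, 121 of 4647 genes with at least 30 UMIs over both libraries (2.60%) were at least 2-fold higher in gated cells of Tsc1 RPE KO, and 41 (0.882%) at least 2-fold lower. The median gene had a log2 ratio of 0.10, and 61% of genes measured outside the gating rule had a ratio above 1. With TMM scaling in edgeR, which set that median to 0.00, the split was 87 higher and 66 lower, and scaled without ribosomal protein and mitochondrial genes it was 89 and 65. In these sums a different level within cells and a different make-up of the gate cannot be told apart.

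Interferon-stimulated genes were higher in Tsc1 RPE KO as a group. Of 16 measured, 15 were higher and 7 at least 2-fold higher, with a median log2 ratio of 0.83 beside 0.10 for all genes; 61% of all genes were higher and 2.60% 2-fold higher. Isg15, a ubiquitin-like protein induced by interferon, gave 23 UMIs in 10 cells of Tsc1 flox and 53 in 25 cells of Tsc1 RPE KO, 37.5 and 109.9 CPM, 2.93-fold higher (1.77 to 5.01). Ifit1 gave 14 UMIs in 6 cells and 38 in 14, 3.45-fold higher (1.83 to 6.90), and Ifit3 gave 6 in 5 and 29 in 11, 6.15-fold higher (2.51 to 18.1). Ly6a, which encodes Sca-1, stood at 174 CPM in 32 cells and 442 CPM in 40, 2.53-fold higher (2.0 to 3.23). Zbp1, a nucleic acid sensor, was 2.14-fold higher (1.39 to 3.36). Ifi203, with a ratio of 0.911 (0.766 to 1.08), was the 1 measured gene of the list below 1. With TMM scaling Mndal, at 1.02 (0.852 to 1.23) here, also fell below 1, leaving 14 of 16 higher. Ifi203 and Mndal overlap on the same strand, so their counts are uncertain between them. Ifit3 and Zbp1 were singled out after their values had been seen. Without the cells with naive genes the list's median was 0.75. Cells with Xist and no Y-linked UMI were 47 of 94 gated cells in Tsc1 flox and 50 of 77 in Tsc1 RPE KO. Kept to these, the list's median was 0.67 over 13 genes. In cells with a Y-linked UMI and no Xist, 27 and 18 in number, it was -0.16, over 4 genes. With 1 male and 1 female per library, each of these values compares 1 mouse of each genotype.

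The same list was not uniformly higher in neighbouring cell classes. Its median was -0.27 in CD3 cells with 1 marker UMI (2 of 13 higher), 0.01 in other CD3 cells (10 of 19) and 0.68 in NK cells (8 of 10). Over all genes measured, the medians in these classes were 0.05, 0.01 and -0.03. Whether the gate differs from these classes was not tested. Isg15 had a ratio of 0.473 in CD3 cells with 1 marker UMI (0.244 to 0.877), 1.53 in other CD3 cells (1.04 to 2.27) and 2.34 in NK cells (1.40 to 4.0). Ly6a had a ratio of 0.822 in other CD3 cells (0.593 to 1.14). Ifi206, a gene of the interferon-inducible p200 family that was no member of the list, was higher in all 4 classes: 4.06-fold in the gate (2.28 to 7.62; 12 and 31 cells), 4.02-fold in CD3 cells with 1 marker UMI, 7.70-fold in other CD3 cells and 22.6-fold in NK cells, the last from 2 and 34 UMIs.

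Other genes higher in Tsc1 RPE KO over many cells were Itgb1, Gadd45b and AW112010. Itgb1 stood at 409 CPM in Tsc1 flox and 805 CPM in the Tsc1 RPE KO library, 1.97-fold higher (1.67 to 2.31), in 49 and 61 cells; it was 2.09-fold higher (1.59 to 2.77) in other CD3 cells as well and 1.13-fold (0.972 to 1.31) in NK cells. Gadd45b, a stress and activation gene, stood at 127 and 309 CPM in 35 and 32 cells, 2.43-fold higher (1.84 to 3.24), beside 1.16-fold (0.868 to 1.55) in other CD3 cells. AW112010, a transcript of interferon gamma activated lymphocytes, stood at 1122 and 2145 CPM in 82 and 71 cells, 1.91-fold higher (1.73 to 2.11). Tissue residency genes were higher in 11 of 12, 0 of them 2-fold, beside 61% and 2.60% of all genes. Their median was 0.50 beside 0.10, or 0.35 without the cells with naive genes. Rgs1, a regulator of chemokine signalling, was 1.81-fold higher (1.48 to 2.21) and Itga1 1.99-fold (1.30 to 3.10). Junb and Fos, the residency genes with the most gated UMIs, are also on the list of immediate early and heat shock genes. That list had a median of 0.15.

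Several of the highest ratios came from few cells. Hist1h1b, a histone gene of S phase, rested on 4 and 6 cells, with 82.4% and 76.0% of its UMIs in 1 cell of each library; its ratio was 7.78 (4.63 to 13.9). Each library held 3 cells with at least 20 UMIs over Mki67, Top2a, Pclaf, Birc5 and Hist1h2ap, the cycling genes, with 27, 56 and 216 such UMIs in Tsc1 flox and 117, 132 and 278 in the Tsc1 RPE KO library. Top2a was 4.14-fold higher (2.59 to 6.83) and Mki67 3.62-fold (2.11 to 6.46). Hist1h2ap was 2.11-fold higher (1.76 to 2.54), and without the cycling cells its ratio was 0.504. Tnfrsf4, which encodes the costimulatory receptor OX40, gave 5 UMIs in 2 cells and 35 in 7, 8.91-fold higher (3.47 to 29.1). Areg, the growth factor amphiregulin, gave 6 UMIs in 3 cells and 27 in 5, 5.73-fold higher (2.32 to 17); the 3 Tsc1 flox cells were all type 17 Trdc cells, and 2 of the 5 Tsc1 RPE KO cells were Foxp3 cells. Regulatory T cell genes were higher in 6 of 6, 3 of them 2-fold, beside 61% and 2.60% of all genes, with a median of 0.88 and with 3 and 5 Foxp3 cells in the gate; Ctla4 was 2.21-fold higher (1.55 to 3.20). Klra1 had 21 UMIs in 5 cells and 67 in 7, and its counts are uncertain among the near-identical Klra genes.

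Naive genes were lower in Tsc1 RPE KO, and type 17 genes were mixed. All 7 naive and recirculation genes measured were lower, 1 of them 2-fold, with a median of -0.38, beside 25 and 9 gated cells with naive genes. As background for this list and the type 17 list, 1809 of 4639 genes outside the gating rule were lower. Of these, 40 were at least 2-fold lower, and the median of all 4639 was 0.10. Lef1 stood at 254 and 139 CPM in 48 and 28 cells, 1.83-fold lower (1.37 to 2.47), while in other CD3 cells its ratio was 1.12 (0.999 to 1.25). Without the gated cells with naive genes the ratio of Lef1 was 0.932 and the list's median -0.06 over 4 genes, after a choice of cells that used Lef1 and 2 further genes of the list. Il7r stood at 1102 and 753 CPM, 1.46-fold lower (1.29 to 1.67). Of 10 genes measured from the longer type 17 list, 4 were higher and 6 lower, 2 of the latter 2-fold, with a median of -0.60, beside 11 and 3 type 17 Trdc cells; it was -1.47 without the deepest cell of each library and -0.91 without the cells with naive genes. With TMM scaling 2 of the 10 were higher. Tmem176a was 1.95-fold lower (1.25 to 3.12) and Serpinb1a 2.16-fold (1.20 to 4.10). Dnajc15, a mitochondrial chaperone cofactor, stood at 274 and 147 CPM in 56 and 43 cells, 1.86-fold lower (1.40 to 2.49). Rps28 stood at 6843 and 4759 CPM, 1.44-fold lower (1.37 to 1.51). 1500009L16Rik was 3.14-fold lower (1.65 to 6.50), and 1 cell of Tsc1 flox gave 45.8% of its 48 UMIs there.

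**Figure D5:**
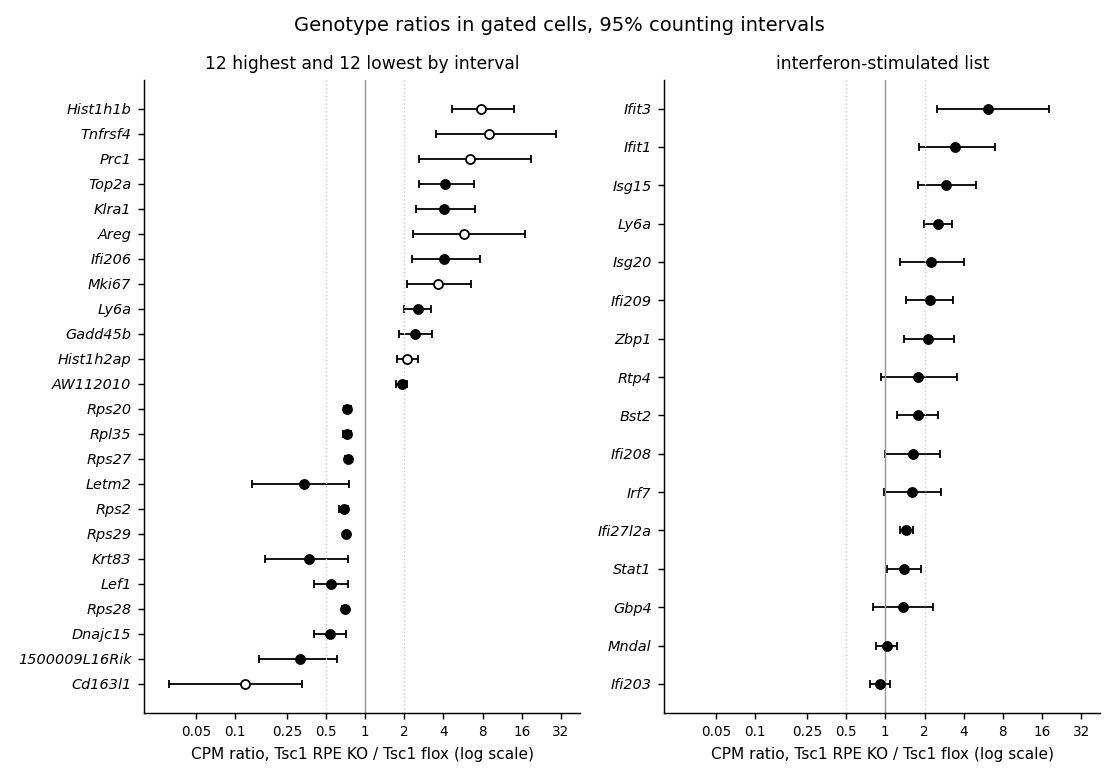
CPM ratio of Tsc1 RPE KO over Tsc1 flox in gated cells on a log axis, with 95% counting intervals, for the 12 highest and 12 lowest genes by the interval bound nearest to 1 (left) and the 16 measured interferon-stimulated genes (right). Open points are genes with at least 50% of their UMIs in 1 cell of either library; 15 of the 16 interferon genes lie above 1.

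Genes of growth control showed small ratios. Of 6 genes of the mTORC1 list measured, 5 were higher in Tsc1 RPE KO, beside 61% of all genes, and 0 of them 2-fold, with a median of 0.18 beside 0.10 for all genes. In cells with Xist and no Y-linked UMI, 2 of 5 were higher, with a median of -0.09. Rheb, the small GTPase that activates mTORC1, had a ratio of 1.15 (0.818 to 1.62), and Rps6, a ribosomal protein gene, was 1.21-fold lower (1.09 to 1.34). Tsc1 had a ratio of 1.64 (0.542 to 5.17).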

How the data were processed

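The deposited values are raw UMI counts per gene and barcode in 1 matrix per library, and every listed barcode is included. Cell Ranger 2.1.1 and the mm10 build are given in the submitters' processing notes, while the deposited matrix headers name Cell Ranger 4, and the version that made the counts is not settled. Barcodes were filtered and gated as described above. Within each library, UMI counts of a class's cells were added up and scaled per 1000000 UMIs (CPM). Intervals were exact Poisson for CPM, conditional binomial for ratios of sums and Clopper-Pearson for shares. Genes with 0 UMIs in 1 class were given a floor of 3 counts for the whole class. Genes counted from 30 UMIs. A few genes are not reported here and enter no list. Gene coordinates came from GENCODE M21 (32158 of 32285 gene IDs matched), and promoter windows from RefSeq (5 of 5 genes asked matched). Free RNA came from barcodes of 10 to 100 UMIs. Doublets were looked for with Scrublet in scanpy 1.11.5 and kept; edgeR 4.0.16 gave the TMM factors. The calculation was tested on simulated counts, drawn for each gene from a Poisson distribution. Such counts leave out the gathering of a gene's UMIs in single cells. The T cells, the 31 gene lists (292 of 293 symbols found) and the tests were chosen with earlier results of these data known. Named genes were the gating genes, up to 6 members of each list with the most gated UMIs, and the 12 highest and 12 lowest by the interval bound nearest to a ratio of 1 in each comparison. Ranked genes left out sex-linked, mitochondrial, haemoglobin and immunoglobulin genes and genes higher in free RNA than in the gate. Groups by receptor chain, and genes given within them, were chosen after their values had been seen.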

Additional observations from a re-analysis of the deposited data

Results flagged for a closer look

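Only genes of the lists or of the rankings were screened here. Of these, 4 stood higher in gated than in other CD3 cells in 1 library and lower in the other, by counting intervals that left out 1. Genes with ratios on opposite sides of 1 but with wider intervals are not among the 4. The share of all measured genes that went opposite ways is not given, so the 4 have no background. The difference between the 2 libraries was not tested. Gzma, the granzyme A gene, had a ratio of gated over other CD3 cells of 1.74 in Tsc1 flox and 0.675 in the Tsc1 RPE KO library. Its level in gated cells was 934 and 859 CPM, and in other CD3 cells 537 and 1273 CPM. In the Tsc1 RPE KO library 1 gated cell gave 43.5% of its UMIs, and without that cell the ratio was 0.399. Klre1, an NK receptor gene, had ratios of 4.19 and 0.575, with 71.7 and 49.8 CPM in gated cells and 17.1 and 86.6 CPM in other CD3 cells. Ccl4, a chemokine gene of activated lymphocytes, had ratios of 0.674 and 2.60, with 121 and 158 CPM in gated cells and 179 and 60.6 CPM in other CD3 cells. These ratios rest on 1 cell in each library. In Tsc1 flox 1 other CD3 cell gave 149 of 188 UMIs, and without it the ratio was 3.24. In Tsc1 RPE KO 1 gated cell gave 46 of 76 UMIs, and without it the ratio was 1.05. Egr1, an immediate early gene, had ratios of 0.589 and 3.63, with 104 and 116 CPM in gated cells and 177 and 32 CPM in other CD3 cells. Without the other CD3 cell that gave 51 of its 186 UMIs, the ratio in Tsc1 flox was 0.807. Gzma, Klre1 and Egr1 stayed on their side of 1 in both libraries without the gated or the other CD3 cell that held most of the gene's UMIs. These cells were left out after the values had been seen.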

How the results depend on the processing

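No paired analysis was possible because each genotype was 1 library with no replicate numbers, and no replicate could be left out. Alternatives by naive, Trdc or cycling cells or by the deepest cell were chosen after seeing the data. Against 121 genes at least 2-fold higher and 41 lower in Tsc1 RPE KO, a minimum of 10 UMIs per gene gave 560 and 329, and no minimum 2231 and 1956, since more genes of few UMIs entered. The lower genes were 66 with TMM scaling, 65 scaled without ribosomal protein and mitochondrial genes and 75 as a mean of per-cell CPM. The gated share of CD3 cells was 20.8% and 16.1% at a minimum of 3 marker UMIs, 12.4% and 9.76% after thinning to 1500 UMIs, and 22.1% and 19.3% without cells with naive genes. The share of kept barcodes at 3 marker UMIs was 4.58% and 3.14%. Among single genes, 4 ratios between genotypes turned: Hist1h2ap to 0.504 without cycling cells, Krt83 to 3.09 and Serpinb1a to 2.48 without Trdc cells, and Tnfrsf4 to 0.275 in cells with a Y-linked UMI and no Xist. Each rested on fewer cells, and the cause was not tested. Over 31 genes with up to 14 alternatives each, 359 of the other values stayed within their gene's counting interval and 70 did not. The interferon median ranged from -0.16 to 0.92, the residency median from 0.17 to 0.58 and the naive median from -0.996 to -0.02. With few gated cells, a gene under 30 UMIs could not be compared at this depth.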
